A study of Mus musculus with 2 samples.

Results

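The proteasome genes described here are the 48 protein-coding mouse genes whose symbol is Psm, a letter from a to g and a number, read from the gene tables of 2 RNA-seq libraries. They were chosen by symbol and class alone, without their values, out of 21474 protein-coding genes and 43346 Ensembl genes in all. By role they fall into 7 genes of the alpha ring, 7 of the beta ring, 5 inducible or tissue-restricted core subunits, 6 ATPases, 3 other subunits of the base, 8 of the lid, 5 in a class of activators and an inhibitor, and 7 assembly factors.

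The proteasome is the protease that degrades proteins marked with ubiquitin. Its core particle is a stack of outer alpha rings, which gate the channel, and inner beta rings, in which Psmb5, Psmb6 and Psmb7 carry the catalytic sites, and every ring subunit is present in equal number. A regulatory particle made of a base, with a ring of ATPases that unfold substrates, and a lid, which removes ubiquitin, docks on the core. Interferon exchanges the catalytic subunits for Psmb8, Psmb9 and Psmb10, which make the immunoproteasome. Erythroid cells are known to clear much of their proteome through ubiquitin ligation and the proteasome as they mature.

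Polyadenylated RNA was sequenced from both ends in G1E-ER4, an immortalized mouse erythroid line. The parent line lacks Gata1, and G1E-ER4 carries GATA1 fused to the hormone-binding part of an estrogen receptor, which estradiol activates. Both libraries are labelled male and Gata1-restored with differentiation induced by estradiol (E2), without a dose or a duration, and they form 1 group, replicate 2 and replicate 1, so that no treatment, time or genotype could be compared. The libraries are labelled biological replicates, yet their labels point to 1 common biosample. The differences between them may therefore be technical, and p-values between them hold counting error alone. Depth was 51923117 estimated counts in replicate 2 and 68901065 in replicate 1. Levels are given in TPM, the authors' transcript abundance, which is corrected for length and scaled to a fixed total in each library. All 7 erythroid markers reached 1 TPM in both libraries, with summed levels of 19844 TPM in replicate 2 against 17389 TPM in replicate 1. Of the markers of other cells, only Lck of the 4 T cell genes and Cd68 of the 5 myeloid genes reached 1 TPM in both, and the summed level of each of the 6 lists was at most 2.75 TPM in replicate 2 against 2.72 TPM in replicate 1. The defining genes Cd3e, Cd2, Ms4a1, Lyz2, Itgam, H2-Aa, H2-Ab1, Foxn1 and all 5 testis germ cell genes were at 0 counts.

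Proteasome genes were broadly expressed in these cells. A level of at least 1 TPM in both libraries was found for 44 of 48 members, 91.7%, beside 39% of protein-coding genes. The 4 others were the inducible subunits Psmb8 and Psmb9, the thymic subunit Psmb11 and the testis subunit Psma8. The median over the 48 genes was 40.8 ± 9.80 TPM (SD of the library medians, n = 2), beside 20.5 TPM over the 8376 detected protein-coding genes. In replicate 2 the members held 0.367% of all counts (95% Clopper-Pearson interval 0.365% to 0.368%), and in replicate 1 they held 0.355% (0.354% to 0.357%). Levels in bulk RNA do not separate fewer expressing cells from less RNA per cell.

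The libraries were unlike for many members, as for genes in general. An exact two-sided binomial test on TMM-scaled counts, with Benjamini-Hochberg adjustment over 10863 genes, called 41 of 45 members different, 91.1%, beside 69.1% of all genes tested. Of these, 21 (46.7%) were higher in replicate 2, beside 34.7% of all genes, and 20 (44.4%) were lower, beside 34.4%. Differences of 2-fold or more were called for 6 members higher in replicate 2 (13.3%, beside 7.46%) and for 2 lower (4.44%, beside 1.68%). The median log2 ratio of replicate 2 over replicate 1 was -0.03 over the members and -0.01 over all genes, with an SD across genes of 0.88 and 0.73. When a biological coefficient of variation of 0.1 was added, edgeR's exact test with the same adjustment called 18 members (40%), beside 18.8% of genes. The 0.1 was a set value below the 0.300 estimated from the 2 libraries, and the test was not run at 0.300. Scaling by library totals split the members' calls 20 higher and 22 lower, and those of all genes 3065 higher and 4756 lower, against 3769 higher and 3733 lower with TMM, and moved the median of all genes to -0.12 and that of the members to -0.14.

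**Figure D1:**
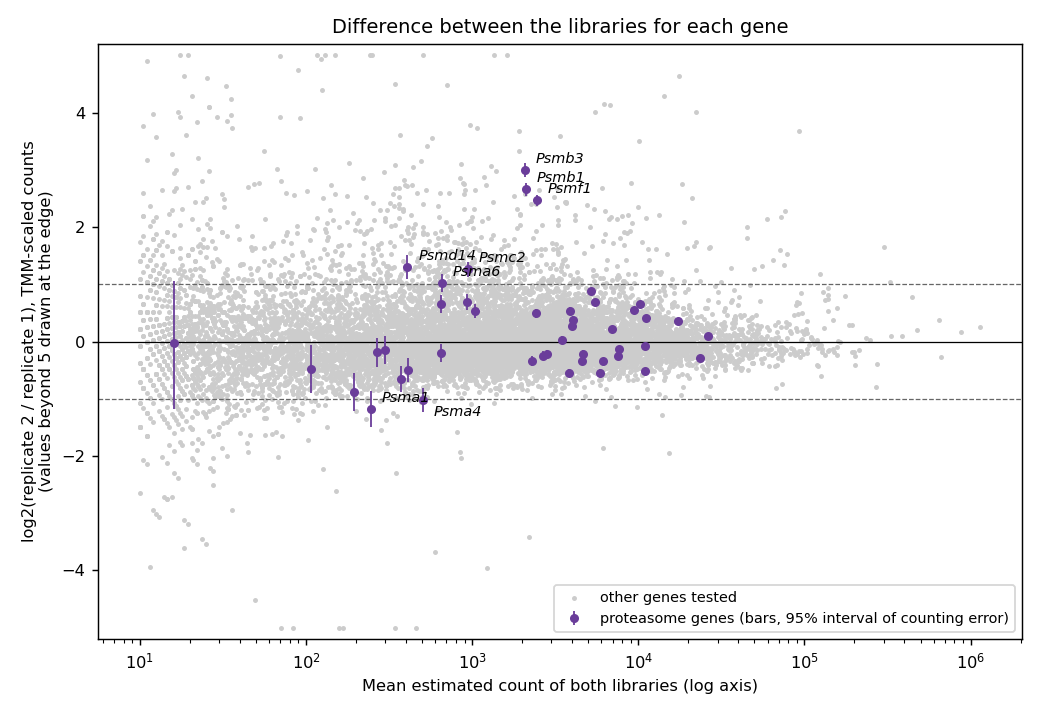
The log2 ratio of replicate 2 over replicate 1 in TMM-scaled counts (vertical axis) against the mean estimated count of both libraries (logarithmic horizontal axis) is shown for each gene tested, with the proteasome genes in purple and 95% intervals of counting error as bars. Psmb3, Psmb1 and Psmf1 lie highest among the members, in that order, and Psma1 lies lowest at -1.17.

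The alpha ring was low except for Psma7. Psma7, which forms the ring with the 6 other alpha subunits (chromosome 2, 180036374 to 180042433, minus strand, mm10), stood at 101.4 TPM in replicate 2 against 88.5 TPM in replicate 1 (94.95 ± 9.08 TPM, mean ± SD, n = 2). The others ranged only up to 19.2 TPM in replicate 2 against 14.4 TPM in replicate 1. Psma7 alone made up 66.6% of the summed TPM of the ring in replicate 2 and 58.8% in replicate 1, although the ring holds its subunits in equal number.

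Psma1 had the lowest mean of the ring (ENSMUSG00000030751, chromosome 7, 114264606 to 114276118, minus strand). It had 116 counts and 2.49 TPM in replicate 2, and 374 counts and 6.04 TPM in replicate 1. The scaled ratio was 0.443 (interval 0.357 to 0.547, adjusted p = 1.52e-15, binomial test). Psma4 likewise was lower in replicate 2, with 6.46 TPM there and 13.3 TPM in replicate 1, a scaled ratio of 0.494 (adjusted p = 4.39e-24, binomial test). Counts of Psma4 are uncertain, since 46.4% of the 31-base words in its model with the highest mean TPM also occur in other genes. Psma6 went the other way. It stood at 19.2 TPM in replicate 2 against 12.5 TPM in replicate 1, and its scaled ratio was 2.04 (interval 1.82 to 2.28, adjusted p = 7.18e-37, binomial test). Psma2 and Psma3 were called lower in replicate 2 by less, Psma7 was called higher by 1.21-fold, and Psma5 was not called, with 4.17 TPM in replicate 2 against 5.12 TPM in replicate 1. Sorted by mean level, 4 of the 6 neighbouring pairs of alpha genes had overlapping values between the libraries, so that the order among the 6 low genes is only partly resolved.

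Most of the beta ring was high, but Psmb7 was low in both libraries and Psmb1 and Psmb3 were low in replicate 1. Psmb4, a structural subunit, had the highest mean of all members, at 368.7 TPM in replicate 2 against 484.7 TPM in replicate 1 (426.7 ± 82.0 TPM, mean ± SD, n = 2), and ranked 321 among the 8376 detected protein-coding genes. The catalytic subunits differed widely among themselves. Psmb6, the caspase-like subunit, had 216.7 TPM in replicate 2 against 202.1 TPM in replicate 1, and Psmb5, the chymotrypsin-like subunit, had 171.6 TPM in replicate 2 against 221.6 TPM in replicate 1. Counts of Psmb5 are uncertain, since 74.0% of the 31-base words in its model with the highest mean TPM also occur in other genes. Psmb7, the trypsin-like subunit, had 273 counts and 6.20 TPM in replicate 2 and 551 counts and 11.0 TPM in replicate 1. Psmb6 thus exceeded Psmb7 by 35.0-fold (interval 30.98 to 39.6) in replicate 2 and 18.3-fold (16.8 to 20.02) in replicate 1. The structural subunit Psmb2 had 162.1 TPM in replicate 2 against 124.4 TPM in replicate 1, and in protein-coding models alone 65.7 TPM in replicate 2 against 69.3 TPM in replicate 1.

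Psmb1 and Psmb3, also structural, had the largest differences between the libraries among all members in scaled counts, while by TPM Psmf1, with a ratio of 7.21, exceeded Psmb1 with 5.84. Psmb1 (ENSMUSG00000014769, chromosome 17, 15475021 to 15499751, minus strand) had 3427 counts and 85.7 TPM in replicate 2, and 776 counts and 14.7 TPM in replicate 1. Psmb3 (ENSMUSG00000069744, chromosome 11, 97703399 to 97713500, plus strand) had 3516 counts and 124.2 TPM in replicate 2, and 627 counts and 16.3 TPM in replicate 1. In scaled counts Psmb1 was 6.31-fold (5.83 to 6.83) and Psmb3 8.01-fold (7.36 to 8.73) higher in replicate 2. The scaled ratios of the other 12 core genes lay between 0.443 and 2.04. Of the 31-base words in the Psmb3 transcript model with the highest mean TPM, 66.8% also occur in other genes. The closest is AC114990.1, not analysed here, so counts of Psmb3 are uncertain. For Psmb1 that share was 9.61%.

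Over both rings the 14 core transcripts were far from equal. Their coefficient of variation was 118.3% in replicate 2 and 156.0% in replicate 1. The highest mean, that of Psmb4, was 100.05 times the lowest, that of Psma1. Summed over its 7 genes, the beta ring stood at 1135 TPM in replicate 2 against 1075 TPM in replicate 1, and the alpha ring at 152.2 TPM in replicate 2 against 150.7 TPM in replicate 1. The ratio of beta to alpha was therefore 7.46 in replicate 2 and 7.13 in replicate 1, although Psmb1 and Psmb3 differed by over 5-fold. The order over all 48 genes is loose, since 38 of 47 neighbouring pairs overlapped between the libraries.

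**Figure D2:**
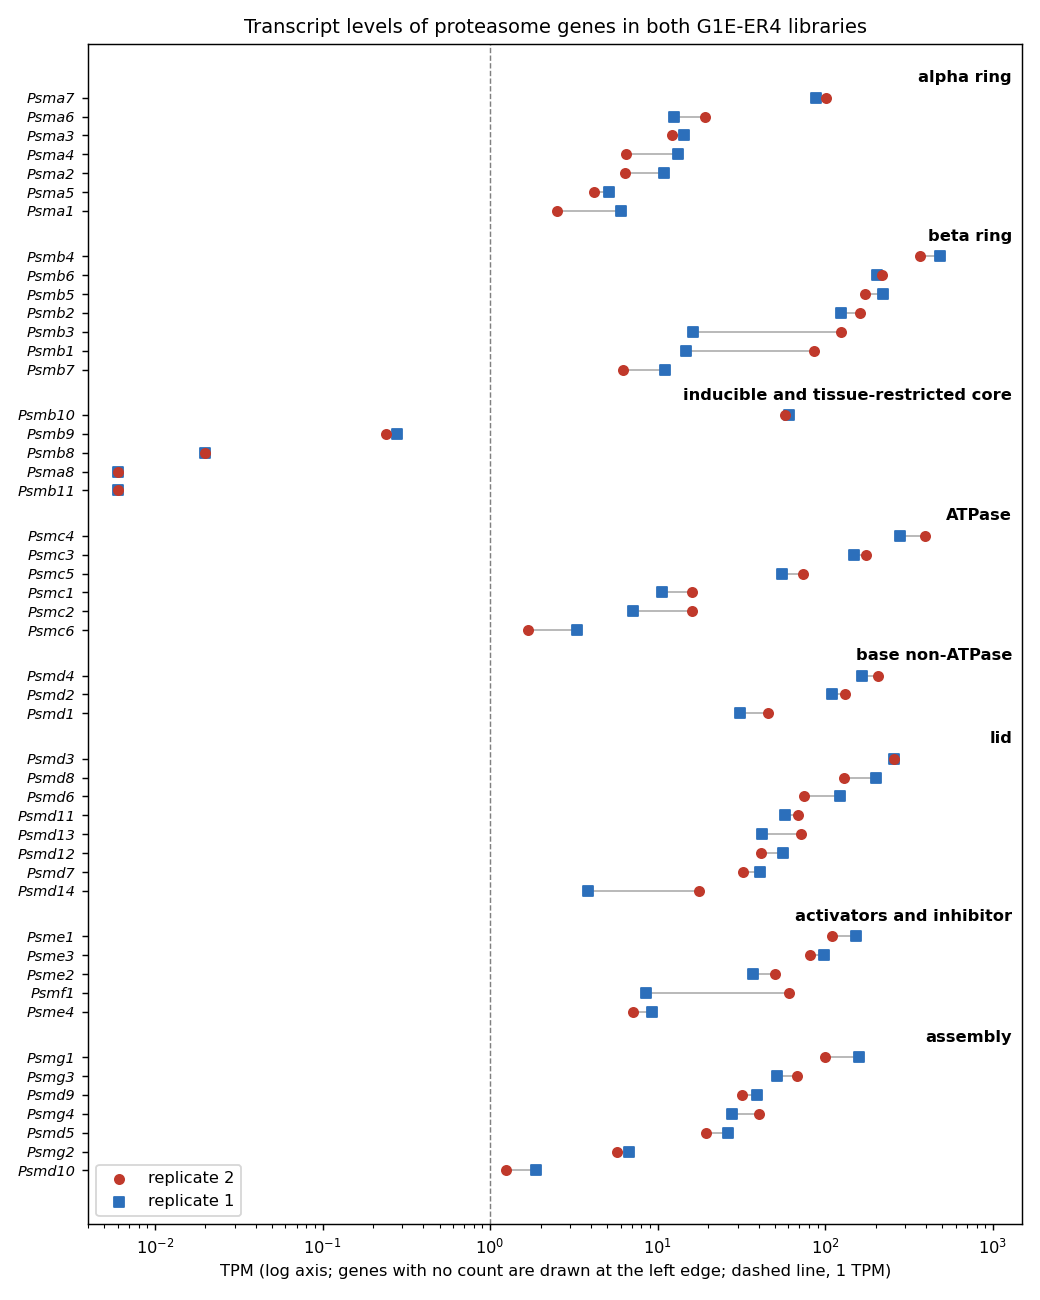
TPM of each of the 48 proteasome genes (logarithmic axis) in replicate 2 (red circles) and replicate 1 (blue squares), by role and sorted by mean level, with genes at 0 counts at the left edge. Psma7 stands apart from the other alpha genes, and Psmb8, Psmb9, Psmb11 and Psma8 lie under 1 TPM in both libraries.

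Of the immunoproteasome subunits, Psmb10 was plainly expressed and the other inducible subunits nearly absent. Psmb10, which replaces Psmb7, had 2900 counts and 57.4 TPM in replicate 2 and 4069 counts and 60.8 TPM in replicate 1, and was not called different (scaled ratio 1.02, interval 0.970 to 1.07, adjusted p = 0.529, binomial test). Psmb9, which replaces Psmb6, had 13 counts and 0.24 TPM in replicate 2 and 19 counts and 0.28 TPM in replicate 1. Psmb8, which replaces Psmb5, had 1 count in replicate 2 and 2 counts in replicate 1, both listed at 0.02 TPM. Psmb11, the thymic form, and Psma8, the testis form of Psma7, had 0 counts in both libraries, which allows up to 3 counts per library or 5.78e-06% of counts in replicate 2 and 4.35e-06% in replicate 1.

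Set against the subunit whose place each takes, these genes lay orders of magnitude apart. Psmb8 over Psmb5 was 8.75e-05 (interval 2.21e-06 to 4.88e-04) in replicate 2 and 1.02e-04 (1.23e-05 to 3.69e-04) in replicate 1, per effective length. Psmb9 over Psmb6 was 0.00111 (5.89e-04 to 0.00190) in replicate 2 and 0.00139 (8.38e-04 to 0.00218) in replicate 1. In contrast, Psmb10 over Psmb7 was 9.27 (8.18 to 10.53) in replicate 2 and 5.51 (5.04 to 6.04) in replicate 1. Against the more abundant catalytic genes Psmb10 was lower, and Psmb10 over Psmb5 was 0.335 in replicate 2 and 0.274 in replicate 1. With 2 libraries a sign test on any such ratio cannot give a p below 0.5, so these stay descriptions. The antigen-presenting-cell markers Cd74, H2-Aa and H2-Ab1 summed to 0.21 TPM in replicate 2 against 0.16 TPM in replicate 1, and H2-Aa and H2-Ab1 had no count in either.

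**Figure D3:**
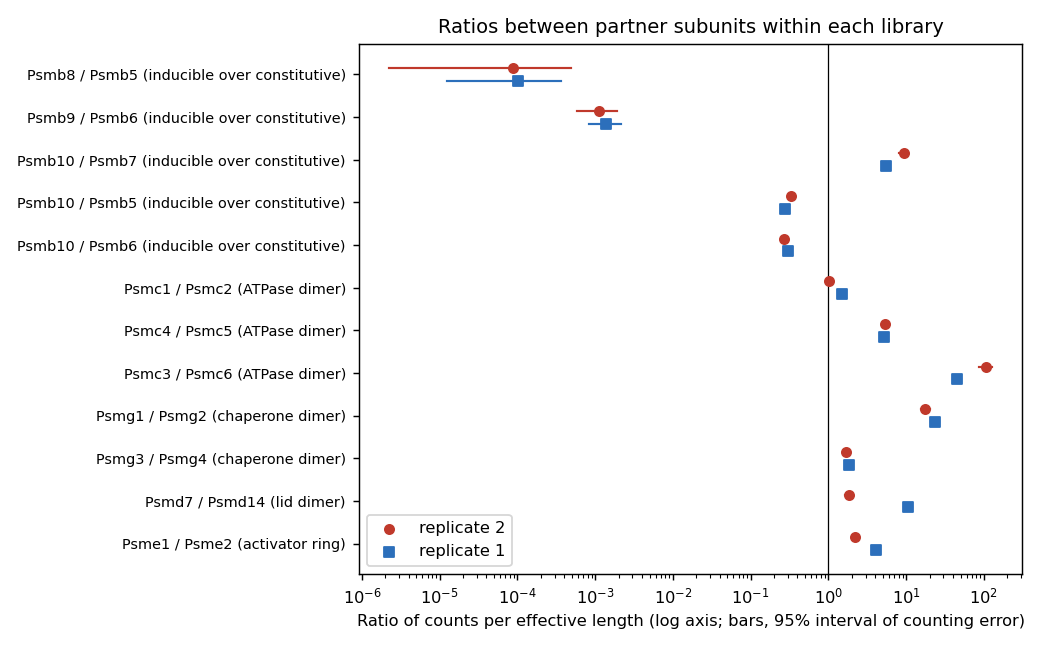
Ratio of the first-named to the second-named gene, from counts per effective length, within replicate 2 (red circles) and replicate 1 (blue squares) on a logarithmic axis, with 95% intervals of counting error. Psmb8 over Psmb5 and Psmb9 over Psmb6 lie below 0.01, Psmb10 over Psmb7 lies above 1, and Psmc4 over Psmc5 is 5.32 in replicate 2 and 5.12 in replicate 1.

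The contrast between Psmb5 and Psmb8, and between Psmb6 and Psmb9, is the widest among paired members. For that reason promoter windows are shown for Psmb5, Psmb6, Psmb8, Psmb9 and Psmb10, but not for Psmb7. Each runs from 250 bases before to 50 bases after the RefSeq start in GRCm38.p6, the same assembly as mm10, in the direction of transcription. Capitals mark TGACNNNGC, to which NRF1 (encoded by Nfe2l1) and NRF2 (Nfe2l2) bind, CCAAT, the box bound by NF-Y, or TTCNNNGAA, the element bound by STAT proteins, on either strand. None of the marked matches overlaps another.
Psmb5: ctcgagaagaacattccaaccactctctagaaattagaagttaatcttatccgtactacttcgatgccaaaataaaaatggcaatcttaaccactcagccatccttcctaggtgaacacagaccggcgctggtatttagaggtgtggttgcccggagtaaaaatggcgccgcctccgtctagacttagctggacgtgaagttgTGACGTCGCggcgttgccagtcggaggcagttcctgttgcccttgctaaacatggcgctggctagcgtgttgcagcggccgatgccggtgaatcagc
Psmb8: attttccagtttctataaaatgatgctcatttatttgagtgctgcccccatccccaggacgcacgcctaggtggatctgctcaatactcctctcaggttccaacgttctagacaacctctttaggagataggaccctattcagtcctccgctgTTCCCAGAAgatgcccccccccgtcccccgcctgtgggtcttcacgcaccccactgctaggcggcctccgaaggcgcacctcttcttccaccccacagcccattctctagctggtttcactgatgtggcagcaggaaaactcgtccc
Psmb6: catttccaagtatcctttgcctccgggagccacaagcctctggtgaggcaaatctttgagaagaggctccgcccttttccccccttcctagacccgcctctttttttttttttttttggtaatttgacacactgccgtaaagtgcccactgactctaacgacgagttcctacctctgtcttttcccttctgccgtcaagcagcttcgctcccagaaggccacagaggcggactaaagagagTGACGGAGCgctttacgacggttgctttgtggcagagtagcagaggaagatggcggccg
Psmb9: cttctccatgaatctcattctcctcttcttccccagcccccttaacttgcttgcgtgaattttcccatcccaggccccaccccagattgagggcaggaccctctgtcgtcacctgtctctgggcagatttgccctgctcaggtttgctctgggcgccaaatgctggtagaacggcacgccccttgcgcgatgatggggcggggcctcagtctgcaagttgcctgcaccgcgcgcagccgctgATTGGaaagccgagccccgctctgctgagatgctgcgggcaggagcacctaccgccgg
Psmb10: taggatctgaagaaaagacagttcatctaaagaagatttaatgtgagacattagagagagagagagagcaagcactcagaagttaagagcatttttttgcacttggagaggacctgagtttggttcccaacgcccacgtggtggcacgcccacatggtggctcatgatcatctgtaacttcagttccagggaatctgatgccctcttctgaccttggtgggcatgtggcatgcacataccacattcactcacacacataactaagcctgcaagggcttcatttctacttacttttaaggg
The windows of Psmb5 (chr14:54617946-54618245, minus strand) and Psmb6 (chr11:70525107-70525406, plus strand) each held TGACNNNGC, starting 47 and 9 bases before the RefSeq start. That of Psmb8 (chr17:34197945-34198244, plus strand) held TTCNNNGAA, starting 97 bases before it, and that of Psmb9 (chr17:34187281-34187580, minus strand) held CCAAT as its reverse complement ATTGG. The window of Psmb10 (chr8:105938343-105938642, minus strand) held none of the 4 motifs searched. For Psmb8 and Psmb9 the RefSeq start lies 474 and 434 bases inside the GENCODE gene start, so these windows are not centred on the outermost annotated start. These matches are letters in a window and carry no statement on binding.

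Psma7 and Psma1, the alpha genes with the highest and the lowest mean level, both held the NF-Y box, as did Psma2, Psma3 and Psma6. The windows of Psma7 and Psma1 are shown, with capitals on CCAAT or ATTGG.
Psma7: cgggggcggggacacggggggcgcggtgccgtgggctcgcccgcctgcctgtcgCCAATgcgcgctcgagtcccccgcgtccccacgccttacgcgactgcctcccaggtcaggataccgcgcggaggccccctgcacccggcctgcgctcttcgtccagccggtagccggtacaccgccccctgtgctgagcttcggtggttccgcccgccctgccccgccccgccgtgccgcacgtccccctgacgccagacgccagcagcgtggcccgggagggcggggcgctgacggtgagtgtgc
Psma1: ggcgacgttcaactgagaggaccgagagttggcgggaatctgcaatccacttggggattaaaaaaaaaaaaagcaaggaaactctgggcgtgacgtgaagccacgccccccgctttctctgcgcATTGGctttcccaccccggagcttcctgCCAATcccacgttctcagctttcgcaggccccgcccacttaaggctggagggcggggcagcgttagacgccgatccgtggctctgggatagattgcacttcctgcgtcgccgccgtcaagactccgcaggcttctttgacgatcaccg
Their windows lie at chr2:180042415-180042714 and chr7:114276067-114276366, both on the minus strand. Psma7 held 1 match and Psma1 held 2. Over all members, 40 genes had 43 windows in the RefSeq table. TGACNNNGC was found in 6 member windows, 13.95%, beside 12.4% of all 32851 windows, in the genes Psmb5, Psmb6, Psmc6, Psmd12, Psmd9 and Psme4. CCAAT was found in 14, 32.6%, beside 37.4%, in Psma1, Psma2, Psma3, Psma6, Psma7, Psmb3, Psmb9, Psmb11, Psmc1, Psmc2, Psmd4, Psmd10, Psmd14 and Psme3. The STAT element TTCNNNGAA was found in 3, 6.98%, beside 8.30%, in Psmb8, Psmd2 and Psmg1. The core of the interferon-stimulated response element, GAAA, any 2 bases and GAAA, was found in 5, 11.6%, beside 3.44%, in Psmb3, Psmd4, Psmd9, Psme1 and Psmg4. The STAT and interferon elements were picked after the levels were known.

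The ATPases, which form the unfolding ring of the base, spanned a wide range, 84.6-fold or more in each library. Psmc4 had 392.3 TPM in replicate 2 against 280.8 TPM in replicate 1 (336.5 ± 78.8 TPM, mean ± SD, n = 2). Psmc6 had 107 counts and 1.68 TPM in replicate 2 and 281 counts and 3.32 TPM in replicate 1. Psmc4 over Psmc6 was thus 233.6 in replicate 2 and 84.6 in replicate 1. Psmc3 had 176.0 TPM in replicate 2 against 148.6 TPM in replicate 1, and Psmc5 had 73.7 TPM in replicate 2 against 54.8 TPM in replicate 1. Psmc1 and Psmc2 were lower, Psmc1 at 16.0 TPM in replicate 2 against 10.7 TPM in replicate 1 and Psmc2 at 15.9 TPM in replicate 2 against 7.14 TPM in replicate 1. Length bears on the first place: most of the TPM of Psmc4 was assigned to Psmc4-206, a model of 587 bases, and in CPM after TMM scaling, which takes no account of length, Psmc4 had 189.3 in replicate 2 and 129.5 in replicate 1, below Psmc3 with 213.9 in replicate 2 and 136.2 in replicate 1.

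The ATPases assemble as dimers, and 1 of the 3 pairs was close to balance, in replicate 2 alone. Psmc1 over Psmc2 was 1.00 (interval 0.922 to 1.09) in replicate 2 and 1.49 (1.35 to 1.65) in replicate 1. Psmc4 over Psmc5 was steady but unequal, at 5.32 (5.13 to 5.53) in replicate 2 and 5.12 (4.93 to 5.32) in replicate 1. Its direction depends on the models counted. All protein-coding models of Psmc4 had 275.5 TPM in replicate 2 against 259.4 TPM in replicate 1. The 1440-base coding model Psmc4-201 alone had 40.3 TPM in replicate 2 against 38.1 TPM in replicate 1. That is below Psmc5-201, with 68.9 TPM in replicate 2 against 52.6 TPM in replicate 1. Psmc3 over Psmc6 was 104.9 (86.7 to 128.1) in replicate 2 and 44.8 (39.8 to 50.6) in replicate 1. Between the libraries 5 of 6 ATPases were called higher in replicate 2, beside 34.7% of all genes, and Psmc6 was called lower. The largest of these differences was that of Psmc2, with 1176 counts in replicate 2 and 701 in replicate 1, a scaled ratio of 2.40 (interval 2.18 to 2.64, adjusted p = 4.08e-77, binomial test).

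The 3 other base subunits were all above the median of detected genes and all called higher in replicate 2, beside 34.7% of all genes. The ubiquitin receptor Psmd4 had 205.0 TPM in replicate 2 against 166.3 TPM in replicate 1. Psmd2, a scaffold and receptor for shuttle proteins, had 130.7 TPM in replicate 2 against 110.3 TPM in replicate 1. Psmd1, the other large scaffold, was lowest, at 45.7 TPM in replicate 2 against 30.9 TPM in replicate 1. The scaled ratios ran from 1.29 for Psmd2 to 1.61 for Psmd1, under the 2-fold mark.

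In the lid, Psmd3, a structural subunit, was highest and almost equal in the libraries, at 256.8 TPM in replicate 2 against 255.2 TPM in replicate 1 (256.0 ± 1.12 TPM, mean ± SD, n = 2). Its small called difference in scaled counts (1.07-fold, adjusted p = 1.02e-15, binomial test) was lost when library totals were used (log2 ratio -0.003, adjusted p = 0.872). Psmd8 had 129.0 TPM in replicate 2 against 199.6 TPM in replicate 1, and Psmd6 had 74.5 TPM in replicate 2 against 122.6 TPM in replicate 1. The structural subunits Psmd11, Psmd12 and Psmd13 and the dimer subunit Psmd7 had means between 36.4 and 63.1 TPM. Psmd11 was called lower in replicate 2 in scaled counts (ratio 0.918) while its TPM was higher there, 68.6 TPM beside 57.7 TPM in replicate 1, since its estimated effective length was 1932 bases in replicate 2 and 2671 in replicate 1. The 581-base model Psmd11-206, annotated for nonsense-mediated decay, held 33.0% of its TPM in replicate 2 and 0% in replicate 1. In protein-coding models alone Psmd11 had 45.5 TPM in replicate 2 against 57.1 TPM in replicate 1.

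Psmd14, the deubiquitinase of the lid, was its lowest gene (ENSMUSG00000026914, chromosome 2, 61711694 to 61800376, plus strand). It had 515 counts and 17.8 TPM in replicate 2, and 300 counts and 3.86 TPM in replicate 1. The scaled count ratio was 2.45 (interval 2.12 to 2.84, adjusted p = 7.74e-36, binomial test), while the TPM ratio was 4.60. The effective length, by which counts are divided to give TPM, was 645 bases in replicate 2 and 1289 in replicate 1. Psmd7, its partner in the catalytic dimer, had 32.3 TPM in replicate 2 against 40.6 TPM in replicate 1, so that Psmd7 over Psmd14 was 1.82 in replicate 2 and 10.501 in replicate 1. Taking the protein-coding models alone, Psmd14 had 4.61 TPM in replicate 2 against 3.49 TPM in replicate 1.

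All 5 genes of the activators and the inhibitor were detected. Psme1 and Psme2 form an interferon-inducible activator ring, and Psme1 had 109.2 TPM in replicate 2 against 153.3 TPM in replicate 1. Psme2 had 49.9 TPM in replicate 2 against 37.0 TPM in replicate 1, so that Psme1 over Psme2 was 2.19 (interval 2.05 to 2.34) in replicate 2 and 4.15 (3.89 to 4.43) in replicate 1. Psme2 is uncertain, since 45.7% of the 31-base words of its model with the highest mean TPM also occur in its copy Psme2b. Psme3, the nuclear activator, had 81.0 TPM in replicate 2 against 98.5 TPM in replicate 1. Psme4, the activator known for degradation of acetylated histones, was low at 7.14 TPM in replicate 2 against 9.21 TPM in replicate 1. In protein-coding models alone Psme2 had 6.85 TPM in replicate 2 against 3.99 TPM in replicate 1, and Psme1 had 61.3 TPM in replicate 2 against 65.9 TPM in replicate 1.

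Psmf1 encodes the inhibitor that competes with the activators (ENSMUSG00000032869, chromosome 2, 151715812 to 151744186, minus strand). It had 3897 counts and 61.1 TPM in replicate 2, and 1008 counts and 8.48 TPM in replicate 1. In scaled counts it was 5.52-fold (interval 5.15 to 5.92) higher in replicate 2, the third member with a difference above 5-fold beside Psmb1 and Psmb3. None of its 31-base words occurs in another gene.

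Assembly factors spanned more than an order of magnitude. Psmg1 and Psmg2 form a chaperone dimer of the alpha ring, and Psmg1 had 99.6 TPM in replicate 2 against 158.6 TPM in replicate 1. Psmg2 had only 5.68 TPM in replicate 2 against 6.77 TPM in replicate 1, and was not called different. Psmg1 over Psmg2 was therefore 17.5 (interval 15.4 to 20.1) in replicate 2 and 23.4 (21.1 to 26.1) in replicate 1. The second chaperone dimer was closer to balance. Psmg3 had 67.4 TPM in replicate 2 against 51.8 TPM in replicate 1, and Psmg4 had 40.1 TPM in replicate 2 against 27.8 TPM in replicate 1, and Psmg3 over Psmg4 was 1.68 in replicate 2 and 1.86 in replicate 1. Among the chaperones of the base, Psmd9 had 31.8 TPM in replicate 2 against 39.4 TPM in replicate 1, and Psmd5 had 19.3 TPM in replicate 2 against 26.1 TPM in replicate 1. Psmd10, also known as gankyrin, was the scarcest detected member, with 72 counts and 1.25 TPM in replicate 2 and 143 counts and 1.87 TPM in replicate 1.

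Transcript models were mostly steady between the libraries. The leading model was the same in both for 42 of the 46 members with any TPM, and its median share of the gene's TPM was 94.7% in replicate 2 and 95.2% in replicate 1. Among the 36 detected members with more than 1 model, 4 changed their leading model, 11.1%, beside 16.8% of 6302 such protein-coding genes. These were Psmb2, Psmc3, Psmd14 and Psme2. Psmc3-203 held 54.0% of Psmc3 in replicate 2 and 0% in replicate 1, while Psmc3-210 held 0% in replicate 2 and 54.5% in replicate 1, and both are protein-coding models. Psmd14-204, a processed transcript of 540 bases, held 67.2% of Psmd14 in replicate 2 and 0% in replicate 1, where the protein-coding Psmd14-201 held 90.3%.

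Psmf1 kept its leading model but changed its makeup. Psmf1-202, which is protein-coding, held 90.6% in replicate 2 and 45.8% in replicate 1. Psmf1-204, annotated as a retained intron, held 0.35% in replicate 2 and 34.1% in replicate 1. For 5 of the 44 detected members the leading model by mean TPM was not protein-coding, beside 19.4% of 8288 detected protein-coding genes. Their gene TPM includes much that is assigned to models without a coding sequence. Psmd6, led by a retained-intron model of 755 bases, had 16.1 TPM in coding models in replicate 2 against 20.6 TPM in replicate 1. In coding models Psma3 had 2.65 TPM in replicate 2 against 3.60 TPM in replicate 1. Shares are estimates by the authors' quantifier for short fragments and have no replicate check beyond the 2 libraries.

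**Figure D4:**
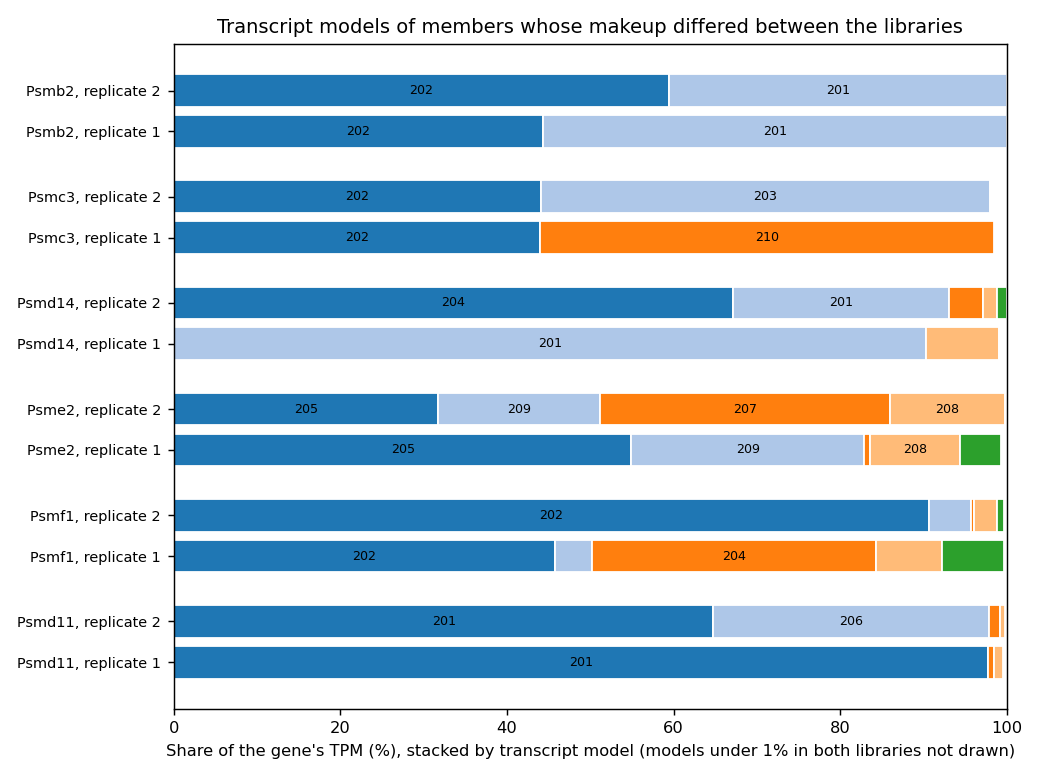
Share of the gene's TPM held by each transcript model, stacked, in replicate 2 (upper bar of each pair) and replicate 1 (lower bar) for 6 proteasome genes; colours set models of 1 gene apart and the number is the model's. Psmd14-204 holds 67.2% in replicate 2 and is missing in replicate 1, and Psmf1-204 holds 34.1% in replicate 1.

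The level of a proteasome gene went with the base composition of its transcript. GC content of the leading model ran from 35.7% in Psmd14 to 58.3% in Psmd3 over the 45 members with a mean of 10 counts. The low end is that of Psmd14-204, which held 0% of Psmd14 in replicate 1, while the protein-coding Psmd14-201 has a GC content of 43.2%. Across these genes GC content and log2(TPM + 1) had a Pearson r of 0.605 and a Spearman rho of 0.612, beside 0.349 and 0.354 across 9864 protein-coding genes. The 18 members at or above the median GC content of protein-coding genes, 52.1%, had a median of 100.7 TPM, and the 27 below it had 15.9 TPM. Among protein-coding genes the same medians were 28.9 TPM above and 7.26 TPM below. In the 14 core genes r was 0.718 and rho 0.653. Genes share their libraries and are not independent replicates, so these are descriptions, and the part of GC content in the levels was not tested.

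**Figure D5:**
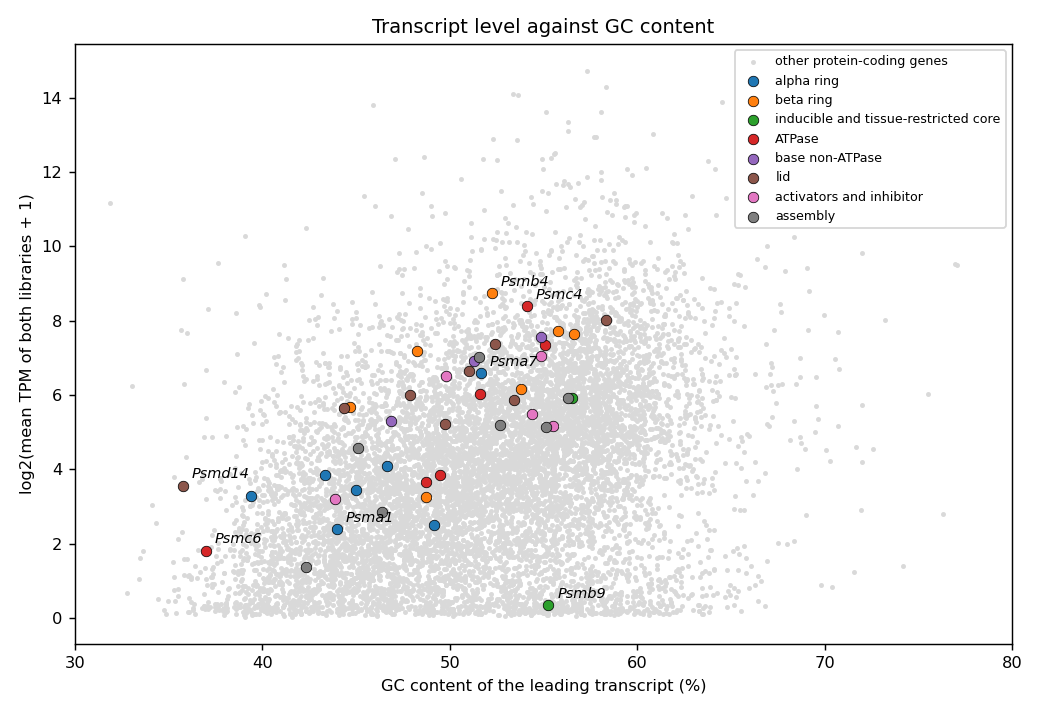
Mean level of both libraries as log2(TPM + 1) against the GC content of the leading transcript (%) for proteasome genes, coloured by role, and other protein-coding genes in grey. Psmd14 (drawn at the GC content of Psmd14-204), Psmc6 and Psma1 lie low, and Psmb4 and Psmc4 lie high; Psmb9 is low at a GC content of 55.3%.

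Copies and neighbours limit some values. The 31-base words were taken from 1 model of each member, the leading one, and other models were not searched. At least 50% of these words were shared with other genes for 4 members, Psma3, Psma5, Psmb3 and Psmb5, and 22 members shared none. Next came Psma4 with 46.4%, Psme2 with 45.7%, Psmd2 with 45.3%, Psmc1 with 39.7% and Psmb7 with 33.5%. Psmb7 overlaps the kinase gene Nek6 on the opposite strand over 6571 bases, and Nek6 stood at 40.3 TPM in replicate 2 against 44.3 TPM in replicate 1, several times the level of Psmb7. Psmc3 overlaps Slc39a13, and Psmd13 overlaps the sirtuin gene Sirt3, each on the opposite strand. The sources used here do not state whether counting used strand, so these values are uncertain.

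Partners of the particle that have other symbols were expressed throughout. All 10 partner genes were detected, and 2 were called higher and 6 lower in replicate 2, beside 34.7% higher and 34.4% lower among all genes tested. Adrm1, a ubiquitin receptor of the base, had 713.3 TPM in replicate 2 against 840.0 TPM in replicate 1, above every Psm gene. Uchl5, the deubiquitinase that Adrm1 recruits, had 323.2 TPM in replicate 2 against 520.9 TPM in replicate 1. Akirin2, which helps import proteasomes into the nucleus, had 89.0 TPM in replicate 2 against 106.8 TPM in replicate 1, and the lowest was the ligase Ube3c with 4.79 TPM in replicate 2 against 5.26 TPM in replicate 1. Pomp, the assembly factor of the beta ring, had only 10.2 TPM in replicate 2 against 12.6 TPM in replicate 1.

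Genes that bring substrates to the particle ranged widely. All 9 shuttle and segregase genes were detected, with 6 called higher and 3 lower in replicate 2, beside 69.1% of all genes called in either direction. The shuttle gene Rad23b had 609.1 TPM in replicate 2 against 347.1 TPM in replicate 1. Vcp, the segregase ATPase, had 292.1 TPM in replicate 2 against 438.1 TPM in replicate 1, and its cofactor gene Ufd1 was lowest with 11.4 TPM in replicate 2 against 7.43 TPM in replicate 1. Of 6 ubiquitin and E1 genes 5 were detected and 4 of 6 tested were called higher in replicate 2, beside 34.7% of all genes, and none lower. The polyubiquitin gene Ubb had 2510 TPM in replicate 2 against 1000.2 TPM in replicate 1. The E1 gene Uba1, called higher in replicate 2 in scaled counts (ratio 1.15), was nearly even in TPM, at 209.0 TPM in replicate 2 against 211.1 TPM in replicate 1, and the other E1, Uba6, had 0.80 TPM in replicate 2 against 0.99 TPM in replicate 1.

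Regulators of proteasome genes were mostly present. Of 8 transcription control genes 7 were detected, and 4 were called higher and 2 lower in replicate 2, so that 6 of 8 were called, near the 69.1% of all genes. The NF-Y subunit gene Nfyc had 89.7 TPM in replicate 2 against 60.0 TPM in replicate 1, Foxo4 had 51.0 TPM in replicate 2 against 58.5 TPM in replicate 1, and Nfya had 46.2 TPM in replicate 2 against 46.9 TPM in replicate 1. In scaled counts Nfya was nevertheless called higher in replicate 2 (ratio 1.198). Nfe2l1, which encodes the factor that restores proteasome synthesis when the protease is inhibited, had 44.1 TPM in replicate 2 against 30.5 TPM in replicate 1. Zfp143 was lowest, with 0.65 TPM in replicate 2 against 1.19 TPM in replicate 1.

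Genes of class I antigen presentation were unevenly expressed. Of 8 genes of MHC class I processing and its regulators 5 were detected, and of 6 tested 2 were called higher and 2 lower in replicate 2, near the 69.1% called among all genes. The peptide-loading gene Tapbp had 84.6 TPM in replicate 2 against 99.7 TPM in replicate 1, the transporter gene Tap2 had 37.5 TPM in replicate 2 against 46.7 TPM in replicate 1, and B2m had 11.0 TPM in replicate 2 against 19.7 TPM in replicate 1. Tap1, which neighbours Psmb9 and overlaps it by 212 bases on the opposite strand, had 1.54 TPM in replicate 2 against 1.06 TPM in replicate 1. Among the regulators, Irf1 had 0.25 TPM in replicate 2 against 0.33 TPM in replicate 1, Irf8 had no count, and Nlrc5 had 0 counts in replicate 2 and 1 count in replicate 1.

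Of 5 genes of erythroid ubiquitin ligation 4 were detected, with 2 called higher and 2 lower in replicate 2. The 4 called were all 4 tested, beside 69.1% of all genes. The scaffold gene Cul4a had 61.8 TPM in replicate 2 against 98.2 TPM in replicate 1, yet in scaled counts it was called higher in replicate 2 (ratio 1.34). Ube2o, which marks ribosomal proteins for degradation in reticulocytes, was also called higher there in scaled counts (ratio 1.05) and had 26.6 TPM in replicate 2 against 27.9 TPM in replicate 1, and Fbxo7 had 22.1 TPM in replicate 2 against 30 TPM in replicate 1. Trim58, a ligase of late erythroblasts, had 1 count in replicate 2 and 0 counts in replicate 1.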

How the data were processed

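Polyadenylated RNA was measured in 2 libraries of 1 group, named replicate 2 and replicate 1 after the labels. Estimated counts (expected counts), TPM, FPKM and the share of each transcript model in percent are the authors' deposited values, with mm10 and GENCODE M4 per the deposited readme files. The sources used here name neither the aligner nor the quantifier. Gene names, classes, GC content and coordinates came from GENCODE M21, matched by identifier for 42462 of 43346 genes, and promoters from RefSeq. Rows that are not genes held 1 count in replicate 2 and 0 counts in replicate 1.

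Expected counts were rounded and scaled by TMM (edgeR 4.0.16, R 4.3.3). All genes averaging 10 counts or more were tested by an exact two-sided binomial test (scipy 1.17.1) with Benjamini-Hochberg adjustment at 0.05. This compares libraries, not conditions. edgeR's quasi-likelihood test needs groups and was not possible. The common biological coefficient of variation was 0.300. The test was checked on simulated counts with known fold changes. These counts held counting error alone, as the test assumes, so the check does not cover further spread between libraries. Intervals of ratios and shares are 95% exact intervals and, like the floor of 3 counts per library, cover counting error only, as PCR reads are no independent molecules. Ratios between genes used counts per effective length.

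The members were set by symbol and class alone. That choice, the gene lists and the tests were made with earlier results of these data known. Named genes were the highest and lowest of each role, members 2-fold or more apart, and the 3 highest and the lowest of each pathway list; Nfe2l1, Pomp, Tap1, Irf1 and Nlrc5 and the other members' values were added after they were seen. Of the listed symbols 1 found no match, and a few genes under this rule are not reported here. Alternatives were other detection minimums, posterior mean TPM (also an estimate deposited by the authors), FPKM, rescaled TPM, other scalings (DESeq2 1.42.0 size factors, library totals), count filters, a pseudocount and each library alone. Leaving out members that share 31-base words, and counting protein-coding models alone, were chosen after seeing the data.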

Additional observations from a re-analysis of the deposited data

How the results depend on the processing

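Of 49 recomputed values 39 kept their direction or stayed close to the reported value, and none reversed. The number of members called between the libraries, 41 as reported, was 18 under edgeR's exact test with a coefficient of variation of 0.1 and 8 when at least 2-fold was asked. The first adds spread that the binomial test leaves out, though less than the estimated 0.300, and the second asks for more by construction. The small ratios moved with the treatment of near-zero values. Psmb8 over Psmb5, a geometric mean of 9.45e-05, was 3.64e-04 in posterior mean TPM, 0.00520 with a pseudocount of 1 TPM and 8.33e-05 in FPKM, which is listed to few decimals. Psmb9 over Psmb6, a geometric mean of 0.00124, was 0.00233 in posterior mean TPM and 0.00599 with the pseudocount. All of these values lie below 0.01. The median share of the leading transcript, 93.3% with both libraries averaged, was 89.5% from posterior mean TPM and 94.7% to 95.2% with 1 library left out, and the cause of the shift in posterior mean TPM was not tested. The coefficient of variation of the 14 core genes was 134.5%, and lay between 118.3% and 159.2% under the alternatives, including 146.4% for protein-coding models alone. The median of the members was 47.8 TPM in replicate 2 alone and 33.9 TPM in replicate 1 alone. With library totals Psma5 and Psmb10 were also called lower in replicate 2 and Psmd3 was no longer called. Depth limits Psmb8 and Psmb9, whose counts are at most 19. No paired analysis was possible because the libraries form 1 group.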
